A study of Mus musculus with 6 samples.

Results

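The 5 NF-κB subunit genes (Rela, Relb, Rel, Nfkb1 and Nfkb2) and 5 genes of the IκB family (Nfkbia, Nfkbib, Nfkbie, Nfkbiz and Bcl3) were read from the RNA-seq of mouse peritoneal macrophages by their gene names, as 10 of the 54532 genes in the table. The genes were taken by name for their known roles, but earlier results of these data were known when they were chosen. All 10 passed the filter on low values (a mean of at least 1 FPKM over the 6 libraries, passed by 9794 genes). FPKM, fragments per kilobase of the listed gene length scaled to the depth of the library, is a level per length. The listed length need not be that of the transcripts present. The order of genes within a group, and shares and ratios between genes, therefore hold only in this unit. The values are levels of RNA, and neither protein nor its place in the cell was measured in these libraries.

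The macrophages came from the peritoneal cavity of male C57BL/6J mice aged 6 to 8 weeks (WT genotype), harvested 5 days after an injection of thioglycolate, a broth that draws macrophages into the cavity. Control cells were left untreated. Model cells received LPS, a bacterial cell wall component, at 500 ng/mL for 5.5 h and then ATP at 2 mM for 0.5 h, the usual pair of signals that primes and then activates the NLRP3 inflammasome. MUS cells received both at the same doses and times, plus muscone, a macrocyclic ketone of musk, at 50 μM from 0.5 h before ATP, so that muscone was added to cells that LPS had already primed. Each group had 2 libraries, numbered 1 and 2, and the labels give that number as a batch. The sources used here do not say whether the 2 libraries of a group came from separate mice or cultures, so p-values measure only the spread between these libraries, which may be technical.

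NF-κB is a family of transcription factors that act as pairs of subunits. Rela, Relb and Rel carry a domain that activates transcription, whereas Nfkb1 and Nfkb2 encode the precursors p105 and p100, which are cut to the DNA-binding subunits p50 and p52. In resting macrophages, IκB proteins hold the pairs in the cytoplasm. When a receptor such as TLR4 binds LPS, the IKK kinase complex marks IκB for degradation, the pairs enter the nucleus, and among the genes they switch on are those of their own inhibitors, which closes a feedback loop. Nfkbia (IκBα), Nfkbib (IκBβ) and Nfkbie (IκBε) encode the cytoplasmic inhibitors, while Nfkbiz (IκBζ) and Bcl3 encode nuclear members of the family that bind p50 or p52 pairs on DNA and can raise or lower transcription.

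The κB motif, the 10-base DNA element that these factors bind, was searched for on both strands of the RefSeq promoter windows (300 bases, from 250 before to 50 after a start site, GRCm38.p6). Of the 10 genes, 7 had a window, and 5 of these held at least 1 match, compared with 5.1% of all 27025 genes with a window. The stretches upstream of a start site that hold a match are shown because these genes, whose levels are compared here, are also known as targets of NF-κB itself. Each is printed 5′ to 3′ on the strand of its gene, with the matching bases in capitals.
Nfkb2, chr19:46304688-46304736 (+), ending at the base before the gene's start: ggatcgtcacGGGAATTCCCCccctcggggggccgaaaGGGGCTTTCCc
Nfkb2, chr19:46305449-46305478 (+), inside the gene and before a later start: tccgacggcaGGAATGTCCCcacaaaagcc
Nfkb2, chr19:46305695-46305724 (+), inside the gene and before a later start: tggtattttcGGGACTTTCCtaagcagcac
Nfkbia, chr12:55492657-55492686 (-): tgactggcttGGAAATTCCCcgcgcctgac
Nfkbie, chr17:45555584-45555613 (+): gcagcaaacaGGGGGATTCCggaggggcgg
Rel, chr11:23771041-23771071 (-): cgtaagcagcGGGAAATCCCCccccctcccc

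The first Nfkb2 stretch held 3 matches, of which 2 overlap by all but 1 base, and the Rel stretch held 2 that overlap in the same way. Windows with 2 or more matches made up 0.55% of the 32851 windows of this length. The Bcl3 window held 1 match, which began 2 bases after the start site and is not shown. The windows of Rela and Nfkbib held none, and Relb, Nfkb1 and Nfkbiz had no window in the RefSeq table. A match is a run of letters and not a measured binding site.

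In GRCm38 positions, as the table gives them, Rela (ENSMUSG00000024927) lies at chr19:5637483-5648130 (+), Relb (ENSMUSG00000002983) at chr7:19606217-19629438 (-) and Rel (ENSMUSG00000020275) at chr11:23736847-23770970 (-). Nfkb1 (ENSMUSG00000028163) lies at chr3:135584655-135691547 (-) and Nfkb2 (ENSMUSG00000025225) at chr19:46304737-46312090 (+). Nfkbia (ENSMUSG00000021025) lies at chr12:55489410-55492647 (-), Nfkbib (ENSMUSG00000030595) at chr7:28758251-28767512 (-) and Nfkbie (ENSMUSG00000023947) at chr17:45555703-45563169 (+). Nfkbiz (ENSMUSG00000035356) lies at chr16:55811375-55838899 (-) and Bcl3 (ENSMUSG00000053175) at chr7:19808462-19822770 (-). 4 of these genes overlap another annotated gene, namely Nfkb1 (Gm43430), Nfkb2 (AC114539.1 and Psd), Nfkbib (Ccer2 and Sirt2) and Bcl3 (Gm16175 and Gm16174). Whether the counting used strand is not stated, so reads in the overlaps cannot be assigned with certainty. The highest FPKM of any overlapping gene in any library was 1.79 for Nfkb1, 7.39 for Nfkb2, 13.1 for Nfkbib and 2.91 for Bcl3.

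The libraries held 15526321 to 17135442 fragments on genes, recovered from the FPKM, and a member had between 293 (Bcl3) and 19048 (Nfkb1) fragments in a library. The markers of macrophages fit the label, with 10 of 10 at a mean of at least 1 FPKM, led by Lyz2, a lysozyme of myeloid cells. Of these, Ccr2 reached that mean through Control replicate 1 (3.28 FPKM) and was at 0.419 to 0.976 FPKM in the other libraries. The 3 markers of resident large peritoneal macrophages summed to only 5.10 to 10.8 FPKM. Markers of T and innate lymphocytes (1 of 9 with a mean of at least 1 FPKM), B cells (1 of 6), eosinophils (1 of 5) and mast cells (0 of 5) were low, and Cd3e, Cd3d and Cd3g were at or under 3 fragments. Neutrophil markers (2 of 6) summed to 20.2 to 34.4 FPKM in Control, 61.3 to 114 in Model and 55.2 to 69.3 in MUS. S100a8, which macrophages can also express, led that sum, whereas S100a9, Ly6g and Retnlg were at or under 3 fragments in every library. The part of such cells in the differences was not tested, and in bulk RNA fewer cells of a type and less RNA per cell cannot be told apart.

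The 2 Control libraries stood apart from each other in these genes. All 10 were higher in Control replicate 2 than in replicate 1, by 0.75 to 3.05 in log2(FPKM + 1) (median 1.74), and the FPKM of Nfkbie was 9.72-fold higher. Over all genes tested, 53.2% were higher in replicate 2 and the median difference in log2(FPKM + 1) was 0.04. Of 34 known target genes of NF-κB, 32 were also higher in Control replicate 2 (median 2.01 in log2(FPKM + 1)). The cause was not tested. Between the replicates of Model the members' median difference was -0.09 in log2(FPKM + 1), and between those of MUS it was 0.23. Each comparison with Control is therefore also given without one or the other Control library. The levels, orders and overlaps of single genes below are in FPKM as deposited, whose depth scale differed between groups, as given later.

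Rela encodes p65, the subunit that activates most inflammatory targets. Its level was 34.4 and 58.3 FPKM in Control replicates 1 and 2, 98.1 and 68.0 FPKM in Model, and 28.0 and 41.7 FPKM in MUS. In FPKM as deposited, both Model libraries lay above both Control and both MUS libraries, while MUS and Control overlapped.

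Relb encodes the partner of p52 in the alternative NF-κB pathway. Its level was 8.04 and 27.6 FPKM in Control, 29.9 and 29.6 FPKM in Model, and 22.3 and 26.1 FPKM in MUS. All values but that of Control replicate 1 lay between 22.3 and 29.9 FPKM, and MUS overlapped with Control.

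Rel encodes c-Rel, a subunit prominent in blood cells and linked to Il12b. Its level was 10.2 and 21.5 FPKM in Control, 42.7 and 52.7 FPKM in Model, and 74.1 and 56.4 FPKM in MUS. The groups stood in the order Control, Model, MUS with no overlap.

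Nfkb1, the gene of p105 and p50, was at 7.86 and 30.4 FPKM in Control. It was at 82.0 and 77.1 in Model and at 103 and 97.2 in MUS. As with Rel, the MUS libraries were the highest and the Control libraries the lowest, without overlap.

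Nfkb2, the gene of p100 and p52, was at 12.9 and 51.2 FPKM in Control. It was at 190.4 and 180.2 in Model and at 82.1 and 119 in MUS. Here Model was highest and MUS lay between Model and Control, again without overlap.

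Nfkbia encodes IκBα, the inhibitor that is degraded and made again within a round of NF-κB activity. Its level was 34.2 and 140.2 FPKM in Control, 474 and 419 FPKM in Model, and 322 and 349 FPKM in MUS. It had the highest mean FPKM of the 10 genes in each group, and Model, MUS and Control did not overlap, in that order.

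Nfkbib encodes IκBβ, a more slowly degraded inhibitor. Its level was 12.3 and 23.8 FPKM in Control, 55.3 and 43.4 FPKM in Model, and 24.1 and 33.2 FPKM in MUS. In FPKM as deposited, the MUS libraries lay between the other groups, with MUS replicate 1 close to Control replicate 2.

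Nfkbie encodes IκBε, a further cytoplasmic inhibitor. Its level was 4.97 and 48.3 FPKM in Control, 54.7 and 51.0 FPKM in Model, and 32.7 and 38.5 FPKM in MUS. Control spanned a wider range than the other groups, and its replicate 2 lay above both MUS libraries and just under Model.

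Nfkbiz encodes IκBζ, a nuclear partner of p50 needed for secondary targets such as Il6. Its level was 2.69 and 15.3 FPKM in Control, 122 and 98.3 FPKM in Model, and 118 and 83.1 FPKM in MUS. Model and MUS overlapped, and both lay far above Control.

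Bcl3 encodes a nuclear IκB protein that binds p50 and p52 pairs. Its level was 5.88 and 19.1 FPKM in Control, 26.6 and 27.1 FPKM in Model, and 7.83 and 13.6 FPKM in MUS. The MUS libraries lay within the range of Control and under both Model libraries.

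**Figure D1:**
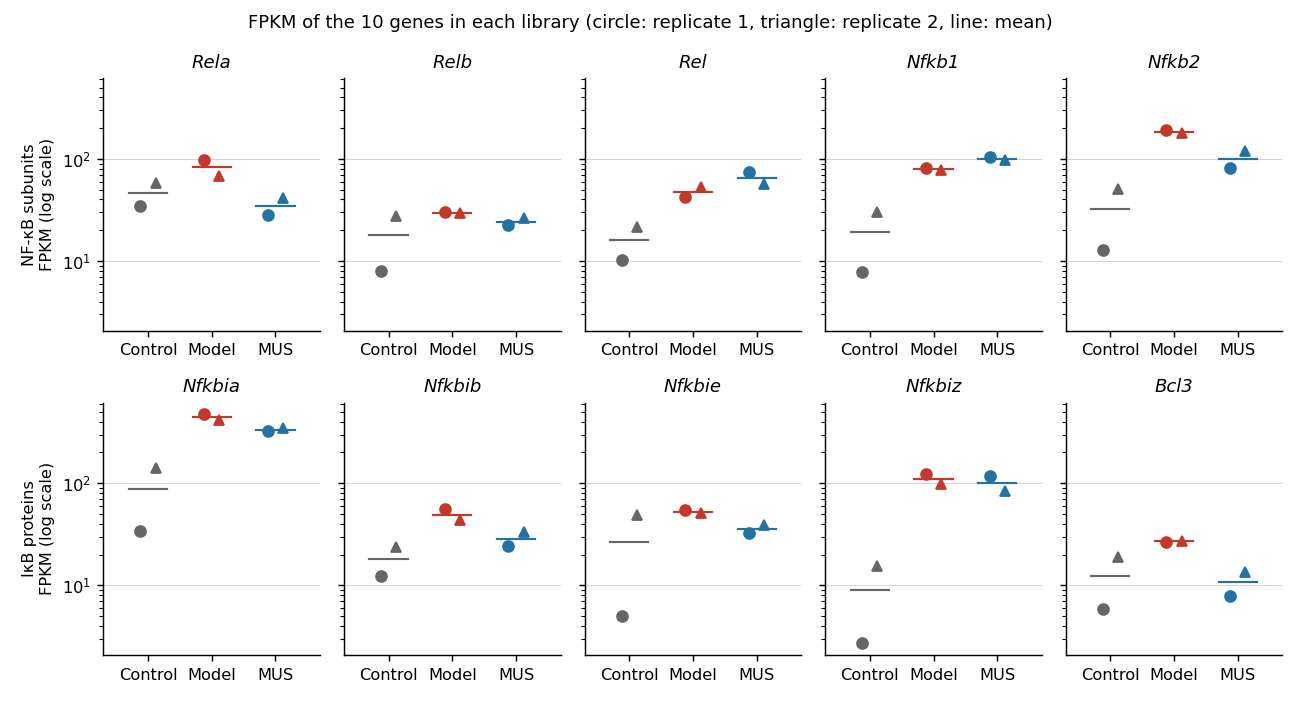
FPKM (log scale) of the 5 NF-κB subunit genes (top) and the 5 IκB genes (bottom) in Control, Model and MUS, with circles for replicate 1, triangles for replicate 2 and lines for the mean of the 2 libraries. In all 10 panels Control replicate 2 sits above Control replicate 1 and both Model libraries sit above both Control libraries.

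By mean FPKM, the order of levels in Control was Nfkbia (87.2 ± 74.9, SD, n = 2), Rela, Nfkb2, Nfkbie, Nfkb1, Nfkbib, Relb, Rel, Bcl3 and Nfkbiz (9.02 ± 8.95, SD, n = 2), and every pair of neighbours overlapped between libraries. In Model it was Nfkbia (446 ± 39.1, SD, n = 2), Nfkb2, Nfkbiz, Rela, Nfkb1, Nfkbie, Nfkbib, Rel, Relb and Bcl3 (26.9 ± 0.350, SD, n = 2). There the neighbours Rela and Nfkb1, Nfkbie and Nfkbib, and Nfkbib and Rel overlapped, and the others did not. In MUS, Nfkbia (335 ± 18.8, SD, n = 2) was again first and Bcl3 (10.7 ± 4.05, SD, n = 2) last, Nfkb2, Nfkbiz and Nfkb1 overlapped around a mean of 100.3 to 100.4, Rel stood alone below them, and Nfkbie, Rela, Nfkbib and Relb overlapped with their neighbours. Nfkbiz moved from the last place in Control to the third in Model.

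To ask how LPS and ATP acted on these genes, Model was compared with Control on log2(FPKM + 1) with limma, across all 9794 genes, with Benjamini-Hochberg adjustment over all of them. A gene was called when its adjusted p was at most 0.05 and its log2 fold change exceeded 1 in size, the thresholds of the study. Of the 10 genes, 6 rose in Model (Rel, Nfkb1, Nfkb2, Nfkbia, Nfkbib and Nfkbiz), and 9.50% of all genes tested were called higher. In FPKM as deposited, both Model libraries lay above both Control libraries for all 10, which held for 32.6% of all genes. The median log2 fold change was 1.63 over the 10 genes and 0.04 over all genes tested.

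The largest of these rises was that of Nfkbiz, by 3.83 (SE 0.64, adjusted p 0.0106, limma). Nfkb2 rose by 2.79 (SE 0.59, adjusted p 0.0227) and Nfkbia by 2.66 (SE 0.62, adjusted p 0.0293). Nfkb1 rose by 2.27 (SE 0.55, adjusted p 0.0331), Rel by 1.61 (SE 0.39, adjusted p 0.0323) and Nfkbib by 1.46 (SE 0.37, adjusted p 0.0378). The called genes were thus both precursor genes, 1 of the 3 subunits with an activation domain, 2 of the 3 cytoplasmic inhibitors and 1 nuclear IκB.

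For the other 4 genes the difference did not pass the test. Nfkbie differed by 1.65 (SE 0.85, adjusted p 0.219, limma), Bcl3 by 1.25 (SE 0.50, adjusted p 0.134), Relb by 0.94 (SE 0.50, adjusted p 0.235) and Rela by 0.85 (SE 0.38, adjusted p 0.170). Nfkbie thus had a larger fold change than Rel or Nfkbib, but its Control libraries lay the farthest apart of the 10 genes.

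The size of these differences varied with the Control library. Where 1 library of a group was left out, the other was assumed to vary like the remaining groups. Without Control replicate 1, 4 genes were called (Nfkb1, Nfkb2, Nfkbia and Nfkbiz), the fold change of Nfkbiz was 2.76, and those of Nfkbie and Relb were 0.13 and 0.11. Without Control replicate 2, 9 genes were called, all but Rela, the fold change of Nfkbiz was 4.90 and that of Nfkbie 3.17. Without Model replicate 1, 0 genes were called and the adjusted p of the 6 genes lay between 0.0698 (Nfkbiz) and 0.147 (Nfkbib), while Nfkbiz still differed by 3.68 and Nfkb2 by 2.75. Without Model replicate 2, MUS replicate 1 or MUS replicate 2, 1 gene was called each time, Nfkbiz. Over all 18 alternatives, the fold change of each of the 10 genes stayed above 0, and Nfkbiz was called in 16, Nfkb2 and Nfkbia in 11, Nfkb1 in 10, Rel in 9 and Nfkbib in 8. Leaving out a MUS library does not touch the fold changes of this comparison, and only the shared estimate of the spread then rests on fewer libraries.

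The Model library lay above the Control library within both batches for 10 of 10 genes. This follows from the separation of the libraries in FPKM and is not a further check. The median difference in log2(FPKM + 1) was 2.65 in batch 1 and 1.05 in batch 2. The difference for Nfkbiz was 5.06 in batch 1 and 2.60 in batch 2. For Nfkbie it was 3.22 and 0.08, and for Relb 1.77 and 0.10. In FPKM as deposited, these 2 genes were thus well above Control in the first batch and nearly level with it in the second. The depth scale of the FPKM differed between the groups, as given below. By fragments scaled to their own totals, Nfkbie, Relb and Rela were lower in Model replicate 2 than in Control replicate 2.

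**Figure D2:**
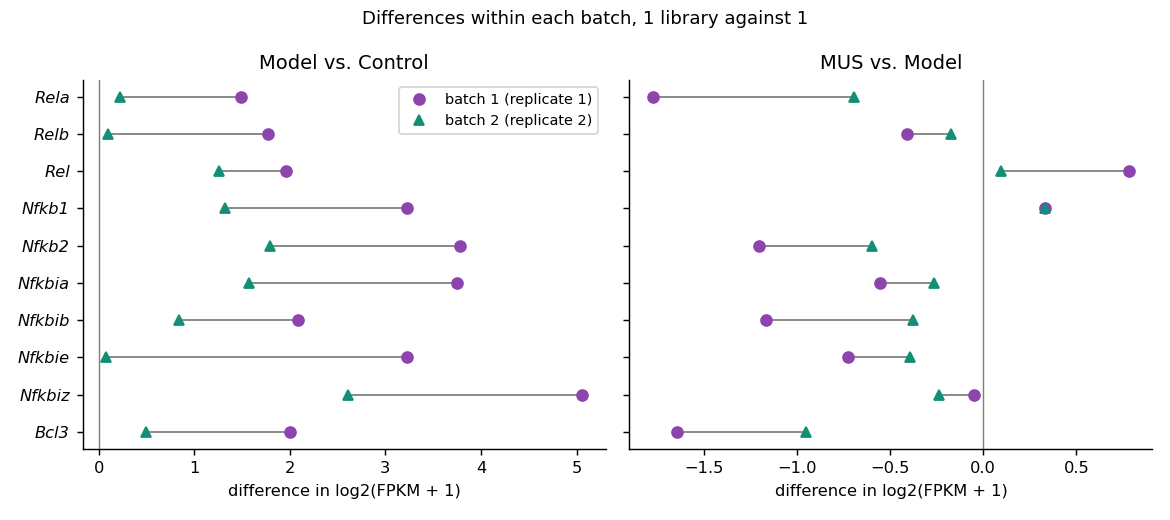
Differences in log2(FPKM + 1) between 1 library and 1 library within batch 1 (circles) and batch 2 (triangles), for Model vs. Control (left) and MUS vs. Model (right), with a grey line joining the batches of each gene. In Model vs. Control all 10 genes are positive in both batches and smaller in batch 2, while in MUS vs. Model only Rel and Nfkb1 are positive, in both batches.

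The depth scale behind the FPKM differed between groups, since it was 1.45 and 1.34 times the fragments on genes in the Control libraries but 0.909 and 0.998 times in Model. When the recovered fragments were scaled by their own totals (limma voom), the median of all genes moved to -0.50, and of all calls 684 were higher and 2050 lower, against 930 higher and 545 lower as deposited. On that scale 5 of the 10 genes were called higher, with Nfkbiz at 3.54, Nfkb2 at 2.30, Nfkbia at 2.14, Nfkb1 at 1.82 and Rel at 1.13. Nfkbib was at 0.97 (adjusted p 0.0641, limma voom) and was not called, and Rela was at 0.32 and Relb at 0.45. Each of the 10 values stayed above 0 and above that scale's median. Not all of the 10 genes kept their libraries apart, however. Nfkbie had 3365 fragments in Control replicate 2, of 17135442 on genes. It had 2349 and 2406 in Model, of 15529580 and 15526321. Relb had 2450 in Control replicate 2 and 1639 and 1781 in Model. For these genes Control replicate 2 thus lay above both Model libraries, and the separation of all 10 holds only in FPKM as deposited.

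**Figure D3:**
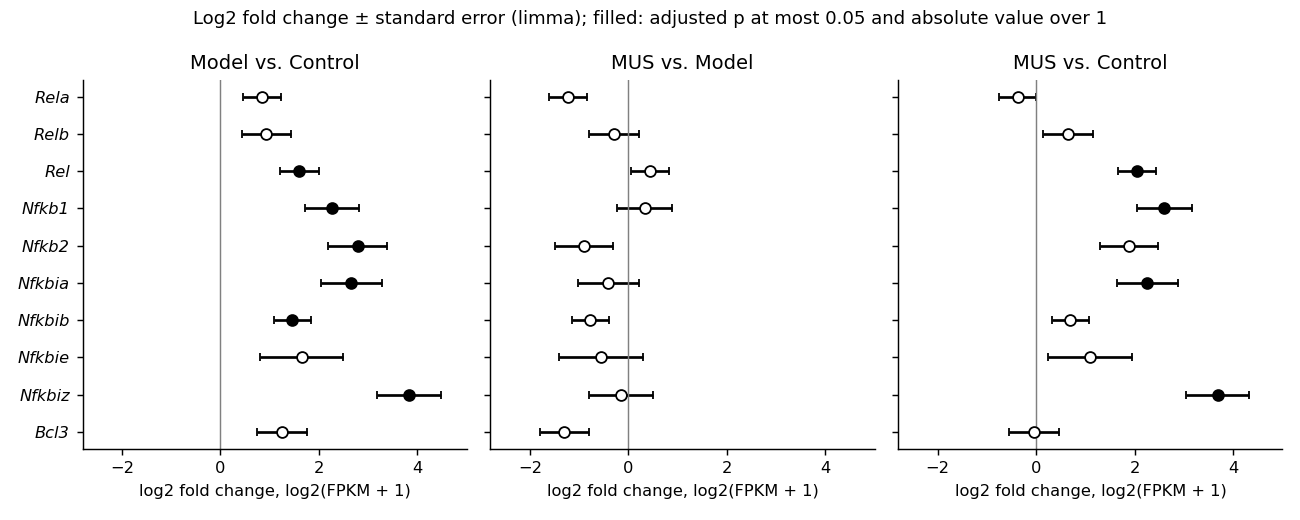
Log2 fold change (points) ± standard error (bars) of each gene on log2(FPKM + 1) for Model vs. Control, MUS vs. Model and MUS vs. Control, with filled points for called genes. Filled points are 6 in the first panel, 0 in the second and 4 in the third.

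To ask how muscone added after priming acted on the same genes, MUS was compared with Model. None of the 10 genes was called, as was the case for 0 of all 9794 genes (0% called lower, smallest adjusted p 0.139, limma). By an unadjusted p under 0.05, 825 genes differed, and voom on the recovered fragments also called 0 genes. Other settings called up to 31 of all genes, with 31 without Model replicate 2, 7 with only the 2 groups compared, 5 without the one or the other Control library, 4 with the replicate number as a block and 1 with a pseudocount of 0.1, and none of the 10 members was among them. The members' median log2 fold change was -0.48, beside 0.01 over all genes tested.

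In 7 of the 10 (Rela, Relb, Nfkb2, Nfkbia, Nfkbib, Nfkbie and Bcl3) the 2 libraries of MUS were lower than either of Model, a pattern of 21.0% of all genes. In Rel and Nfkb1, 2 of the 10, they were higher than either, a share near the 21.2% of all genes with that pattern, and Nfkbiz overlapped. The sign of the difference was the same in both batches for 10 of 10 genes. For the genes without overlap this follows from the separation of the libraries and is not a further check. The medians were -0.64 in batch 1 and -0.32 in batch 2.

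The lowest values were those of Bcl3, at -1.30 (SE 0.50, unadjusted p 0.0366, adjusted p 0.546, limma), and Rela, at -1.23 (SE 0.38, unadjusted p 0.0148, adjusted p 0.463). These were the only 2 of the 10 genes with an unadjusted p under 0.05, and 5.81% of all genes were lower at that level. The mean FPKM of Bcl3 was 2.51-fold higher in Model than in MUS, and that of Rela 2.38-fold higher. Within batches, Rela differed by -1.77 and -0.69 and Bcl3 by -1.65 and -0.95.

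Among the other genes, Nfkb2 was at -0.90 (SE 0.59, adjusted p 0.746, limma) and Nfkbib at -0.77 (SE 0.37, adjusted p 0.653). Nfkbie was at -0.56, Nfkbia at -0.41, Relb at -0.29 and Nfkbiz at -0.14, with adjusted p from 0.905 to 0.972. Rel was at 0.44 (SE 0.39, adjusted p 0.820) and Nfkb1 at 0.33 (SE 0.55, adjusted p 0.918). With standard errors of 0.37 to 0.85, these values show neither a difference nor that the levels were equal.

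The base composition of the transcripts and the gene length both moved with these directions. The gene length was 7466 bases for Rel and 12061 for Nfkb1, and 1610 to 5018 for the 8 genes with a negative value. Rela, Relb, Nfkb2, Nfkbib and Bcl3 had a GC content of 58.8% to 59.8%, Nfkbia 54.2% and Nfkbie 55.7%, while Rel had 42.5%, Nfkbiz 49.1% and Nfkb1 51.0%. Over all genes with a GC value (9785 of 9794), the median log2 fold change of MUS vs. Model was -0.38 in the tenth of genes with the highest GC content (median 58.8%) and 0.10 in the tenth with the lowest (median 40.1%). After a correction for gene length and GC content, chosen after seeing the data, Rela was at -0.80, Bcl3 at -0.82, Nfkb2 at -0.47 and Nfkbib at -0.26. Relb then changed sign to 0.11, and Rel and Nfkb1 were at 0.26 and 0.17. The sign of the other 9 genes held. The parts of base composition and of length in their differences were not told apart or tested further.

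**Figure D4:**
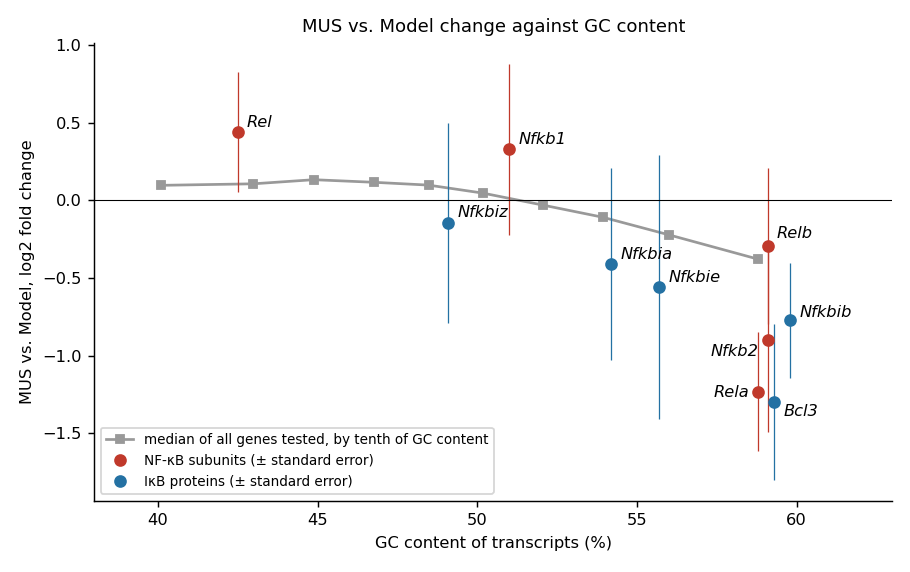
Log2 fold change of MUS vs. Model (± standard error) against the GC content of each gene's transcripts in percent, with subunits in red, IκB genes in blue and, in grey, the median of all genes tested in steps of GC content of 978 or 979 genes each. The grey line falls from 0.10 to -0.38, and the 5 genes near 59% GC lie between -0.29 and -1.30.

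MUS was also set against Control, a comparison that shares its libraries with the others, to place the levels after muscone against untreated cells. Nfkbiz rose by 3.68 (SE 0.64, adjusted p 0.00937, limma), Nfkb1 by 2.60 (SE 0.55, adjusted p 0.0174), Nfkbia by 2.25 (SE 0.62, adjusted p 0.0389) and Rel by 2.05 (SE 0.39, adjusted p 0.0119). These 4 of the 10 genes stood beside 11.3% of all genes called higher. In FPKM as deposited, both MUS libraries lay above both Control libraries for 6 of the 10 genes, beside 39.6% of all genes. The depth scale was 0.932 and 0.986 times the fragments on genes in MUS, lower than in Control. By fragments scaled to their own totals, Nfkbib overlapped, with 789 of 16222724 in MUS replicate 1 and 1179 of 17135442 in Control replicate 2. Rela then lay lower in both MUS libraries (1150 and 1839 fragments) than in either Control library (2135 and 3625).

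Nfkb2 was at 1.89 (SE 0.59, adjusted p 0.0580) and became a call with the replicate number as a block (SE 0.50, adjusted p 0.0314). Nfkbie was at 1.09 (SE 0.85, adjusted p 0.374), Nfkbib at 0.69 (SE 0.37, adjusted p 0.211) and Relb at 0.64 (SE 0.50, adjusted p 0.375). Bcl3 was at -0.05 (SE 0.50, adjusted p 0.952) and Rela at -0.38 (SE 0.38, adjusted p 0.494).

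The count of calls against Control also turned on single libraries, being 7 without Control replicate 2, 3 without Control replicate 1 and 0 without either MUS library. Without Control replicate 1, Nfkbia was at 1.25 (adjusted p 0.0622, limma) and lost its call, Nfkb2 was at 0.93 (adjusted p 0.141), and Nfkbie was at -0.43 and Relb at -0.19, so that the direction of these last genes turned. Without Control replicate 2, Nfkbia was at 3.25 and Nfkb2 at 2.84. Over the 18 alternatives, Nfkbiz, Nfkb1 and Rel were called in 15 each, Nfkbia in 9 and Nfkb2 in 5. By voom, where the median of all genes was -0.48, Rela was at -0.93 (adjusted p 0.0671, limma voom), Bcl3 at -0.58, Nfkbib at 0.19 and Relb at 0.16, and Nfkb2 was at 1.40 (adjusted p 0.0771) and was not called. Within batches, in FPKM as deposited, 9 genes were higher in MUS than in Control in batch 1 and 6 in batch 2, and 7 had the same sign in both.

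The summed FPKM of the 10 genes was 133 and 436 in Control, against 1175 and 1046 in Model and 814 and 857 for MUS. The makeup of this sum was described by shares and ratios within a library, which do not depend on the scale of the library. Nfkbia made up 25.6% and 32.2% of the sum in Control, against 40.3% and 40.0% in Model and 39.6% and 40.7% for MUS. Rela made up 25.8% and 13.4% in Control, against 8.34% and 6.50% in Model and 3.44% and 4.86% for MUS. The share of Nfkbia was thus higher, and that of Rela lower, in all 4 treated libraries than in either Control library.

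The log2 ratio of summed IκB FPKM to summed subunit FPKM was -0.29 and 0.38 in Control, against 0.73 and 0.65 in Model and 0.70 and 0.60 for MUS. Model exceeded Control by 0.64, which was 0.30 without Control replicate 1 and 0.98 without replicate 2 (exact permutation test, two-sided, p 0.33, the smallest that 2 libraries against 2 allow). MUS differed from Model by -0.03 (exact permutation test, p 0.667). The sums are led by Nfkbia, and with the mean of log2 values in their place MUS differed from Model by -0.31.

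Among the subunits, the ratio of Nfkb1 to Rela, picked after its values were seen, was 0.229 and 0.521 in Control, against 0.836 and 1.13 in Model and 3.69 and 2.33 for MUS. The ratio of Rel to Rela, picked likewise, was 0.298 and 0.369, 0.435 and 0.774, and 2.64 and 1.35 in the same order. Both ratios rank Control, Model and MUS without overlap, and they set GC-poorer transcripts of longer genes against a GC-richer one of a shorter gene. The ratio of Nfkb2 to Relb, also not planned beforehand, was 1.61 and 1.86 in Control, against 6.37 and 6.09 in Model. It was 3.69 and 4.55 for MUS, which lay between the other groups.

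Profiles over the 6 libraries were compared by the root mean square difference of log2(FPKM + 1), centred on each gene's mean. Within the family, Nfkb2 and Nfkbia were each other's nearest, at 0.243, as were Rela and Bcl3, at 0.331, and Relb and Nfkbib, at 0.344. Nfkbiz was the farthest from any other member, at 0.649 from Nfkbia, and Nfkbie followed at 0.497 from Relb. Among all genes tested, the nearest to the subunits were Acaa1a for Rela (0.0776), Pilrb1 for Relb (0.103), Adgrg6 for Rel (0.10), Lcp2 for Nfkb1 (0.112) and Tap2 for Nfkb2 (0.193). The nearest to the IκB genes were Dck for Nfkbia (0.0933), Tagln2 for Nfkbib (0.0457), Pilra for Nfkbie (0.199), Gm6377 for Nfkbiz (0.170) and Sema4a for Bcl3 (0.239).

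The other genes of the pathway were read from 4 lists. Of 11 genes of the IKK complex and NF-κB kinases, 10 were tested, 3 rose in Model vs. Control and the median log2 fold change was 0.82. Map3k8, a kinase kept in check by p105, rose by 2.08 (SE 0.27, adjusted p 0.00483, limma), and Tbk1, a kinase of the interferon response, by 1.31 (SE 0.35, adjusted p 0.0437). The third was Tab2, an adaptor of the kinase TAK1, at 1.04 (adjusted p 0.0471). With the replicate number as a block, 1 of the 10 was called. Without Control replicate 1, either Model library or either MUS library, 1 was called too, and without Control replicate 2, 4 were. By voom, where the median of all genes was -0.50, the median of the list was 0.37, 1 gene was called higher and 1 lower, Tab1, an adaptor of TAK1, at -1.17 (adjusted p 0.0480, limma voom). With rescaling without mitochondrial genes and the 20 highest genes, the median was 0.25.

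Of 12 genes of IκB turnover and direct NF-κB regulators, 9 were tested, 0 were called in either direction by limma (0 by voom, 3 at an unadjusted p under 0.05, a level reached by 33.6% of all genes) and the median was 0.12. Without Control replicate 2 or Model replicate 2, 1 was called. Of 14 negative feedback and survival targets, 7 rose and the median was 2.11, with Tnfaip3 (the deubiquitinase A20) at 3.29 (SE 0.58, adjusted p 0.0120, limma) and the adaptor Traf1 at 3.23 (SE 0.71, adjusted p 0.0244). Of 20 inflammatory targets, 16 rose and the median was 5.13, with Il1b at 9.67 (SE 1.26, adjusted p 0.00488) and Il6 at 8.82 (SE 0.48, adjusted p 0.000504). Without Model replicate 1, the counts of these last lists were 1 and 8, without Control replicate 2 they were 11 and 20, and without Model replicate 2 or either MUS library they were 3 and 11. The genes of the upstream kinases and of IκB turnover thus differed less from Control than the members, and the inflammatory targets more, by their medians.

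In MUS vs. Model, 0 genes of the 4 lists were called by limma or voom, 2 genes of IκB turnover and 0 of the other lists had an unadjusted p under 0.05 (8.42% of all genes did), and the medians were 0.19 for the kinases, -0.29 for IκB turnover, 0.02 for feedback and survival targets and -0.17 for inflammatory targets. In MUS vs. Control, 4 kinase genes, 9 feedback and survival targets and 17 inflammatory targets were called higher. The kinase genes were Map3k8, Tbk1, Tab2 and Ikbkb. 1 gene of IκB turnover was called lower, Nkiras2, a small GTPase-like protein that slows the degradation of IκBβ, at -1.14 (adjusted p 0.0388, limma), and 8.91% of all genes were called lower. Without MUS replicate 1, the counts of kinases, feedback and survival targets, and inflammatory targets were 0, 1 and 5, and without MUS replicate 2 they were 1, 2 and 9. Without Control replicate 1 they were 1, 5 and 17, without Control replicate 2 they were 6, 11 and 20 higher and 1 feedback and survival target lower (Bcl2l1, an inhibitor of apoptosis), and without either Model library they were 4, 6 and 13. The count of IκB turnover, in either direction, was 0 without any library but Control replicate 2, where Fbxw11, of the ligase that tags phosphorylated IκB, was higher and Nkiras2 lower.

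**Figure D5:**
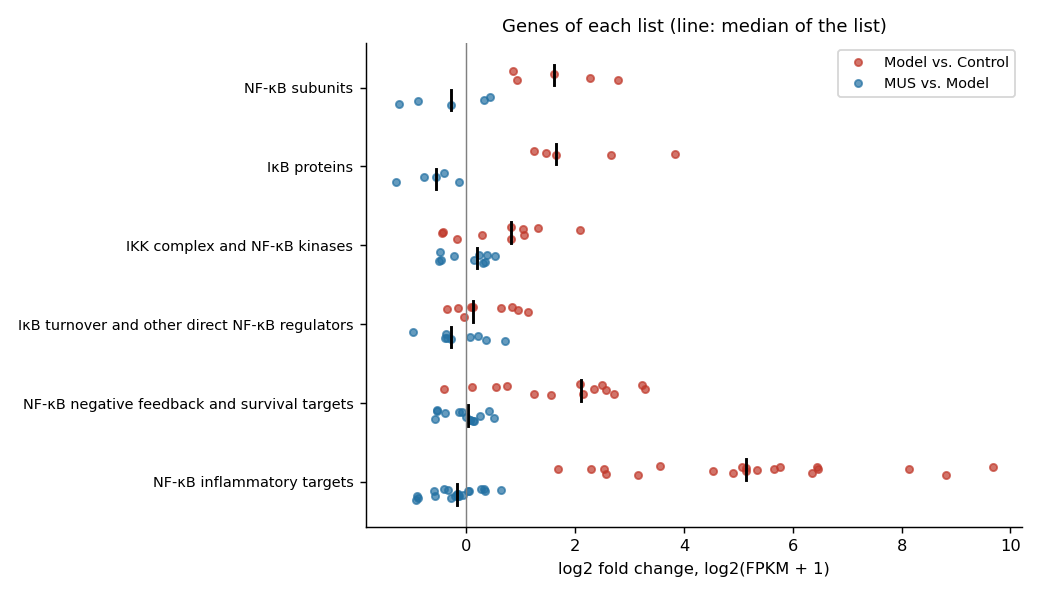
Log2 fold change on log2(FPKM + 1) of each tested gene in the 2 member groups and the 4 pathway lists, in red for Model vs. Control and in blue for MUS vs. Model, with black lines at the median of each list. The red medians run from 0.12 (IκB turnover) to 5.13 (inflammatory targets), and the blue medians lie between -0.56 and 0.19.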

How the data were processed

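The samples were peritoneal macrophages of the groups Control, Model and MUS, with 2 poly-A RNA-seq libraries each. The authors deposited FPKM per gene and library, made per kilobase of the listed gene length. The paper's methods name RSEM, while the submitters' processing notes name HISAT2, featureCounts 1.5.0-p3 and the build GRCm39. Of 54409 gene IDs shared with GENCODE M21 (GRCm38), 98.3% had the same position. FPKM times length was a whole multiple of 1 step in 100% of values (tolerance 0.1 of a step), which gave the fragments. 3 fragments on 1 kb, the limit that a count of 0 allows (counting error only), came to 0.131 to 0.213 FPKM.

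Values were fitted with limma 3.58.1 (R 4.3.3; lmFit, contrasts.fit, eBayes with trend) on log2(FPKM + 1), with all 6 libraries in 1 model (3 residual and 4.04 prior degrees of freedom), since a count test does not suit FPKM. A fold change on this scale understates the change of low genes. On simulated data for Model vs. Control (9794 genes), 137 of 200 changed genes and 1 unchanged gene were called. The labels give the replicate number as a batch without saying what the batch was, so the numbers may pair the libraries. The replicate differences between groups correlated across genes at 0.12 (Control and Model), -0.09 (Control and MUS) and 0.14 (Model and MUS). They were thus little shared between groups, and the main fit left the block out. A fit with this block was an alternative, as were another pseudocount and filter, other scalings, voom and leaving out each library. The length and GC correction was added after seeing the data. Ratios were compared by exact permutation tests.

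Members and pathway lists were chosen with earlier results of these data known. The text names all 10 members, the 2 called genes of each pathway list with the largest change in Model vs. Control, and 1 nearest gene per member (IκB turnover had no called gene). Tab1, Tab2, Ikbkb, Nkiras2, Bcl2l1 and Fbxw11 were named after their values were seen. 0 columns lacked a sample. Figures were drawn with Python 3.11.15, NumPy 2.4.6, pandas 2.3.3 and Matplotlib 3.10.9.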

Additional observations from a re-analysis of the deposited data

How the results depend on the processing

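Under the alternatives other than leaving out 1 library, 321 of 360 fold changes of members kept their direction and their side of the threshold. Of the rest, 27 lost a call, 6 gained one and 6 turned sign. Most of the 360 were not calls in the main fit, since only the calls in Model vs. Control (6) and MUS vs. Control (4) could be lost. For Model vs. Control, the count of called members (6) was 0 with no filter on low values, where 30192 genes were tested, 1 with only the libraries of the groups compared, 1 with quantile normalization and 3 with rescaling without mitochondrial genes and the 20 highest genes, and it ranged from 0 to 9 with 1 library left out. Quantile normalization gave 707 higher and 715 lower calls over all genes, and that rescaling 585 and 1776. In the same order of settings, the kinases (3) had 1, 1, 1 and 1 calls, and the feedback and survival targets (7) had 1, 3 and 4 under the first 3. Inflammatory targets (16) had 5 with no filter, and IκB turnover (0) had 1 with the filter raised to a mean of 5 FPKM. When 1 library was left out, these lists had 1 to 4, 1 to 11, 8 to 20 and 0 to 1 calls.

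With the replicate block for a possible pairing by batch, the kinases had 1 call in Model vs. Control. Members had 6 calls in Model vs. Control, 0 in MUS vs. Model and 5 in MUS vs. Control, and no other call of a member changed.

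For MUS vs. Control, the count of members (4) was 0 with no filter, and it ranged from 0 to 7 with 1 library left out. The kinases (4) had 1 with no filter and 2 with quantile normalization, the feedback and survival targets (9) had 1 and 4, and the inflammatory targets (17) had 5 with no filter. IκB turnover (1) had 2 with a pseudocount of 0.1 and with median-of-ratios rescaling, and 0 with no filter, with only the groups compared and with the length and GC correction, without or with the replicate block. With 1 library left out, these lists had 0 to 6, 1 to 12, 5 to 20 and 0 to 2 calls, higher and lower calls together.

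Fold changes that turned sign were those of Relb in MUS vs. Model (0.11 with the length and GC correction, without or with the replicate block), and of Rela (0.21) and Bcl3 (0.59) in MUS vs. Control under the same correction. With 1 library left out, Nfkbiz in MUS vs. Model ranged from -0.39 to 0.10, and in MUS vs. Control Relb ranged from -0.19 to 1.47, Nfkbie from -0.43 to 2.61 and Bcl3 from -0.82 to 0.72. The log2 ratio of IκB to subunit sums ranged from 0.30 to 0.98 in Model vs. Control and from 0.27 to 0.94 in MUS vs. Control, and was 0.17 in MUS vs. Control with the mean of log2 values. The causes were not tested.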
